A study of Pseudopodoces humilis with 2 samples.

Results

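Of 15394 genes listed for the ground tit (Pseudopodoces humilis), a small songbird that lives on the ground in high open country of Tibet, 56 were abundant at a similar level in liver and in muscle. They were chosen by their measured values: at least 50 RPKM in both tissues, and an absolute d under 1. RPKM counts reads relative to the length of the gene and the size of the library, and d is log2(liver RPKM + 1) minus log2(muscle RPKM + 1). An absolute d of 1 is close to a 2-fold difference at these levels. The series was made for gene annotation and holds 1 liver sample and 1 muscle sample, each from total RNA sequenced on an Illumina instrument. Strain, age, treatment and the number of birds are not given in the labels. With 1 sample per tissue, no difference between tissues has a replicate check and no p-value was computed.

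The deposited muscle column could be written as the mean of 2 libraries. Whole reads recovered from the RPKM values gave a liver total of 46313678, a total of 86472618 for one muscle library and 47542891 for the other, called larger and smaller here. These muscle libraries give the only repeated measure of the members. Nothing in the labels tells whether they stem from different birds, and the spread between them may be purely technical.

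Genes that are abundant in unlike tissues often serve work that most cells share, such as protein synthesis, energy supply and the cytoskeleton. Liver is known for secreting plasma proteins, and muscle for its contractile proteins, so each tissue also spends much of its RNA on products of its own. RPKM is a relative measure: an equal value means an equal part of each library per length of gene, not an equal number of molecules per cell. In whole tissues, fewer cells of a type and less RNA per cell cannot be told apart. The files used here pair no gene ID with a name, so what the members encode is not reported, no gene list was evaluated and the tissue labels were not checked against marker genes.

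The rule took 0.364% of all listed genes. No listed gene was at 0 in both tissues, so shares of all genes leave out any gene without reads. At 50 RPKM or more there were 229 genes in liver and 325 in muscle, and 111 of them in both. The 56 members made up 50.5% of these 111, while an absolute d under 1 was found for 63.9% of the genes at 1 RPKM or more in both tissues. The latter genes had a liver median of only 3.10 RPKM, where the 1 RPKM added in d pulls it towards 0. The same bound of d thus allows a wider fold difference there, so these shares cannot be compared directly. Of the 55 other genes among the 111, 9 had a d of 1 or more and 46 had a d of -1 or less. The member nearest to the lower bound had a d of -0.996, and the nearest gene outside it -1.01. On the side of liver the bound was hardly approached, with 0.51 inside and 1.01 outside. The lowest value of a member was 50.8 RPKM, and the nearest gene below the minimum stood at 48.9 RPKM. All 56 members had whole reads recovered in liver and in both muscle libraries.

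**Figure D1:**
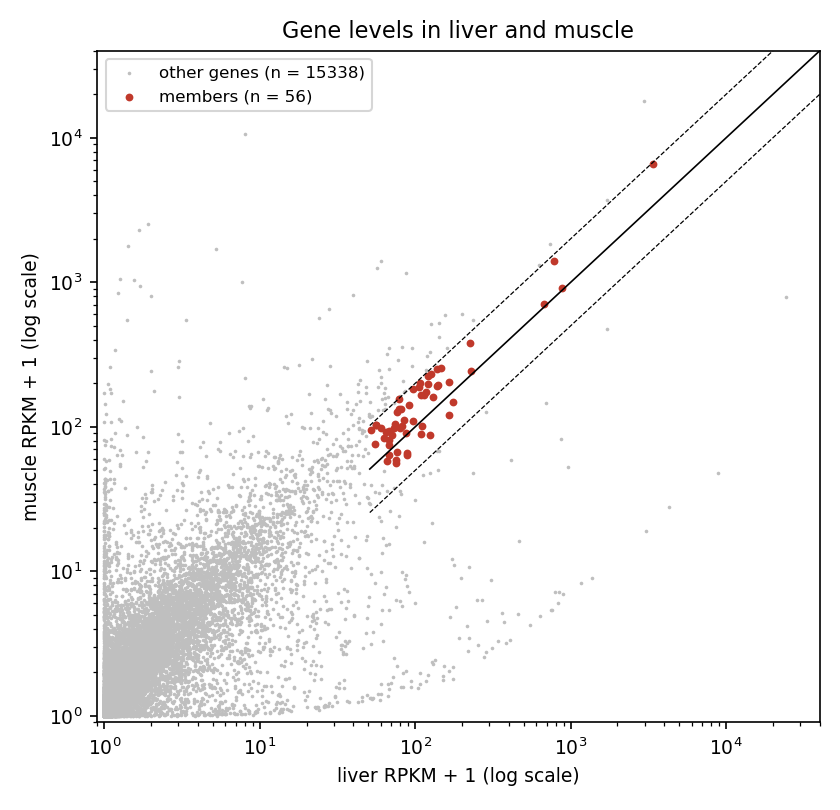
Liver RPKM + 1 (horizontal) and muscle RPKM + 1 (vertical), both on log axes, for the 56 members (red) and all other genes (grey), 1 point per gene. The solid line marks equal values and the dashed lines an absolute d of 1. Most members lie between the solid line and the upper dashed line, on the side of muscle on this deposited scale.

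The members spanned a wide range of levels. Their RPKM ran between 50.8 and 3364 in liver with a median of 89.1, and between 55.2 and 6573 in muscle with a median of 115. By the lower of the 2 tissue values, 33 members stood between 50 and 100 RPKM, 17 between 100 and 200, and 6 at 200 or more. By rank among all genes, the members lay between places 4 and 225 in liver and between places 3 and 293 in muscle. The rule sets the lower end of these ranges, but not how far they reach upwards.

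The highest member was evm.TU.scaffold15732.16, gene 16 on scaffold 15732, with 28 genes listed. Its liver level was 3364 RPKM, and counting error alone put it between 3344 and 3385 (exact Poisson 95% interval, 103298 reads). In muscle the larger library had 7978 RPKM (7955 to 8001, from 457390 reads), and the smaller one had 5167 RPKM (5142 to 5192, from 162877 reads). Both muscle libraries were above liver, and they were further apart than their counting intervals. Its d was -0.97 against the deposited muscle column, -1.25 against the larger library and -0.62 against the smaller, so the larger library alone would have left it out. It held the fourth place in liver and the third in muscle.

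The member with the next highest lower value was evm.TU.scaffold6564.35, gene 35 on scaffold 6564. Its level was 874 RPKM in liver (869 to 879), against 898 RPKM in the larger muscle library (895 to 902) and 916 RPKM in the smaller one (912 to 921). The 3 values lay within a narrow range, with liver the lowest, and d was -0.05. This was the d closest to 0 among the members.

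Among the members with the higher value in liver, the 2 with the highest levels were evm.TU.scaffold22694.4 and evm.TU.scaffold19911.31. Gene 4 on scaffold 22694 had 175 RPKM in liver (173 to 177), against 155 RPKM in the larger muscle library (154 to 157) and 141 RPKM in the smaller one (140 to 143), and a d of 0.24. Gene 31 on scaffold 19911 had 164 RPKM in liver (158 to 171), against 113 RPKM (109 to 117) in the larger and 126 RPKM (120 to 132) in the smaller one, and a d of 0.46. In each of these genes liver was above each muscle library, but the order of the muscle libraries differed between the genes.

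Together with the first 2 genes described above, 2 other members stood far above the rest. The first had 779 RPKM in liver, against 1462 and 1362 RPKM in the larger and smaller muscle libraries, a d of -0.86. The other had 674 RPKM in liver, against 826 and 596 RPKM, a d of -0.08, and its liver value lay between the muscle libraries. These 2 and the first 2 genes above are the 4 highest members. After them the levels dropped to 227 and 223 RPKM in liver, where muscle stood at 242 and 380 RPKM.

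Added up, the members' RPKM made 9.29% of the liver total and 11.3% of the muscle total. Most of this came from few genes: the 4 highest members held 52.4% of the members' sum in liver and 58.1% in muscle, and the highest alone held 31.0% and 39.7%. Without the 4 highest, the other 52 members took 4.42% in liver and 4.75% in muscle. With all members the share was 12.3% for the larger muscle library and 10.4% for the smaller one; without the 4 highest it was 4.67% and 4.83%. The order of the muscle libraries thus turned when the 4 highest members were left out. For comparison, the 55 other genes at 50 RPKM or more in both tissues took 33.6% in liver and 27.9% in muscle.

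By reads in place of RPKM the shares were smaller. The members held 1563491 of the recovered liver reads (5.06%), against 3909726 (7.35%) and 1914050 (6.46%) in the larger and smaller muscle libraries. Set against all reads of each library, genes or not, the shares were 3.38% in liver, against 4.52% and 4.03%. Recovered reads are lower bounds, because any common divisor of a gene's reads and length drops out. The highest member, with a recovered length of 663 bases, held 2.88% of the liver RPKM sum but 0.334% of the recovered liver reads. Ranked by reads, 40 members were among the 500 highest genes of liver, and 39 and 38 among those of the larger and smaller muscle libraries. The minimum of 50 RPKM in part sets these ranks, and other abundant genes were not ranked beside the members. The fewest reads of any member were 570 in liver, against 1448 for the larger muscle library and 640 for the smaller one.

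**Figure D2:**
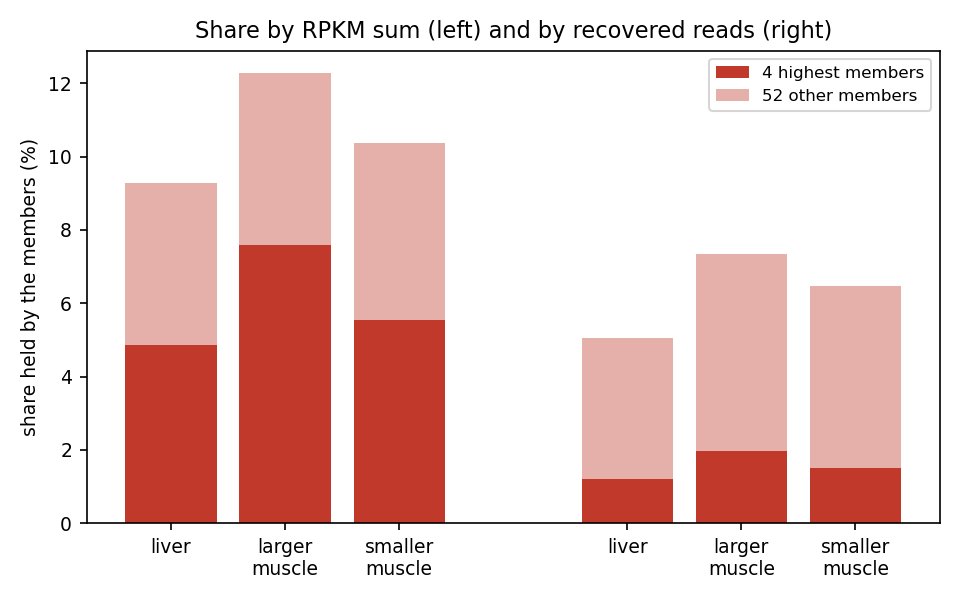
Share (%) of the RPKM sum (left 3 bars) and of the recovered reads (right 3 bars) held by the members in liver, the larger and the smaller muscle library. The dark part is the 4 highest members and the light part the 52 others; by RPKM the 4 highest hold 4.87% in liver, against 7.60% for the larger muscle library and 5.55% for the smaller one.

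On the deposited scale the centre of d lay on the side of muscle. The median d of the members was -0.46, with quartiles of -0.75 and -0.07. Of the 56 members, 12 (21.4%) had the higher value in liver and 44 in muscle, as deposited. The rule bounds d equally on both sides, so it did not set this direction, but the same lean ran through the whole table. Among the 4215 genes at 1 RPKM or more in both tissues, the median d was -0.57 and 24.1% had the higher value in liver. Among those of them with an absolute d under 1 it was 25.3% of 2693, and among the 111 genes at 50 RPKM or more in both it was 18.9%. The members' share is near these values, and nothing particular to them can be read from it.

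The size of the lean depended on the scale. Centring on the 4215 genes, bringing both columns to the same sum and scaling without the 50 highest genes of either tissue shift every d towards liver alike, by about 0.57, 0.32 and 0.71. Which of the 56 members then change sides is fixed by the shift, so the rule was applied anew on each scale. After centring, 81 genes passed, 53 of them members, with a median d of -0.23 and 39.5% higher in liver. With equal sums, 82 passed, 55 of them members, with a median d of -0.39 and 26.8% higher in liver. Without the 50 highest genes, 96 passed, 49 of them members, with a median d of -0.18 and 36.5% higher in liver. The centre of the genes that passed thus lay closer to 0 on each of these scales and still on the side of muscle. The 56 members themselves, merely shifted, had a median d of 0.11 after centring and 0.25 without the 50 highest genes. Of them 35 and 39 were then above 0, and 24 with equal sums. The side on which the members' own centre lay thus depended on the scale.

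Inside the bounds, the members hardly passed the middle of the side of liver on the deposited scale. There were 24 members with a d from -1 to -0.5, 20 from -0.5 to 0, 11 from 0 to 0.5, and 1 above 0.5. In percent these were 42.9, 35.7, 19.6 and 1.79, against 39.1, 35.6, 17.5 and 7.80 for all genes detected in both tissues with an absolute d under 1. An absolute d under 0.5 was found for 31 members (55.4%), against 53.1% of those detected genes. For 10 of the 56 members the absolute d was under 0.2, against 563 of the 2693 detected genes with an absolute d under 1. By d, the share was thus not higher in the members. However, those of the 2693 genes that are not members had a liver median of 2.64 RPKM. At such levels the 1 RPKM added in d pulls it towards 0, which it hardly does for the members. The shares in this paragraph therefore cannot tell whether the members were closer between tissues than other detected genes.

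**Figure D3:**
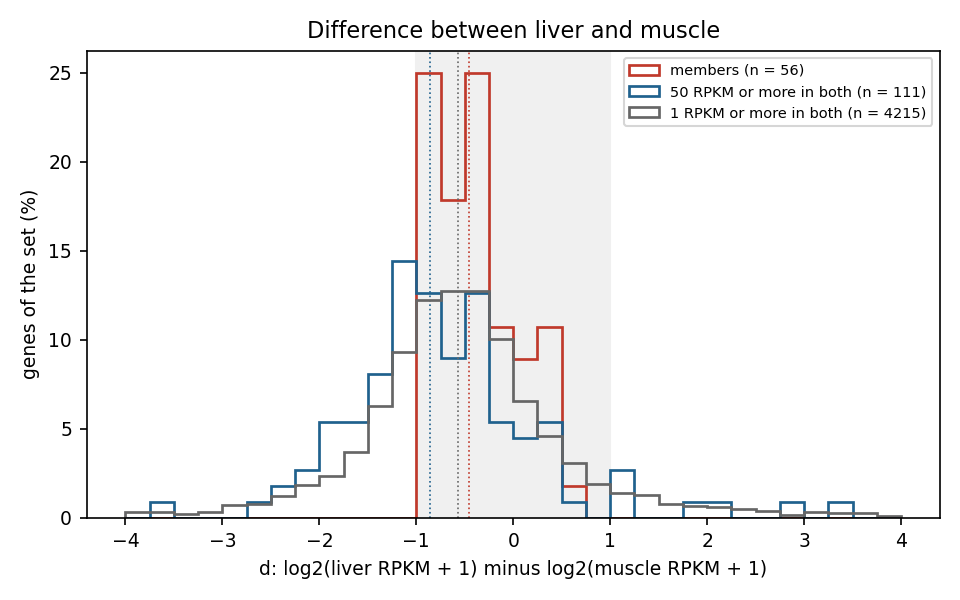
Distribution of d (horizontal, log2 units, 0.25 per bin) in percent of each set (vertical), for the members, the genes at 50 RPKM or more in both tissues and the genes at 1 RPKM or more in both. The grey band is the range of the rule, dotted lines are medians (-0.46, -0.86 and -0.57), and genes with an absolute d over 4 are not drawn.

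The 12 members higher in liver ran between 64.4 and 175 RPKM in liver with a median of 87.4, and between 55.2 and 148 RPKM in muscle with a median of 65.7. The 44 members higher in muscle ran between 50.8 and 3364 RPKM in liver with a median of 93.3, and between 73.2 and 6573 RPKM in muscle with a median of 148. All 6 members at 200 RPKM or more in both tissues were thus on the side of muscle on the deposited scale. Their d values were -0.97, -0.05, -0.86, -0.08, -0.09 and -0.76, so some were close to 0. Of the 111 genes at 50 RPKM or more in both tissues, 90 were on that side too, and nothing particular to these 6 can be read from it. Across the members, d was only loosely related to level: Spearman's rho between d and the lower value was -0.16 over 56 genes of the same libraries. The liver and muscle values of the members had a rho of 0.77, which the rule itself raises.

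The muscle libraries allow the tissue difference to be set beside a spread within muscle. In 40 of the 56 members (71.4%) both muscle libraries were above liver, and in 11 (19.6%) both were below. Over the 4186 genes at 1 RPKM or more in both tissues and with 20 reads or more in each muscle library, these shares were 72.6% and 21.6%. The remaining 5 members had their liver value between the muscle libraries. The widest of these had 61.9 RPKM in liver, against 111 RPKM in the larger and 55.6 RPKM in the smaller muscle library. In 11 members (19.6%) the muscle libraries differed from each other by more than liver differed from their mean on the log2 scale. That share was 11.4% over the 4186 genes and 17.7% over the genes within an absolute d of 1 that are not members.

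**Figure D4:**
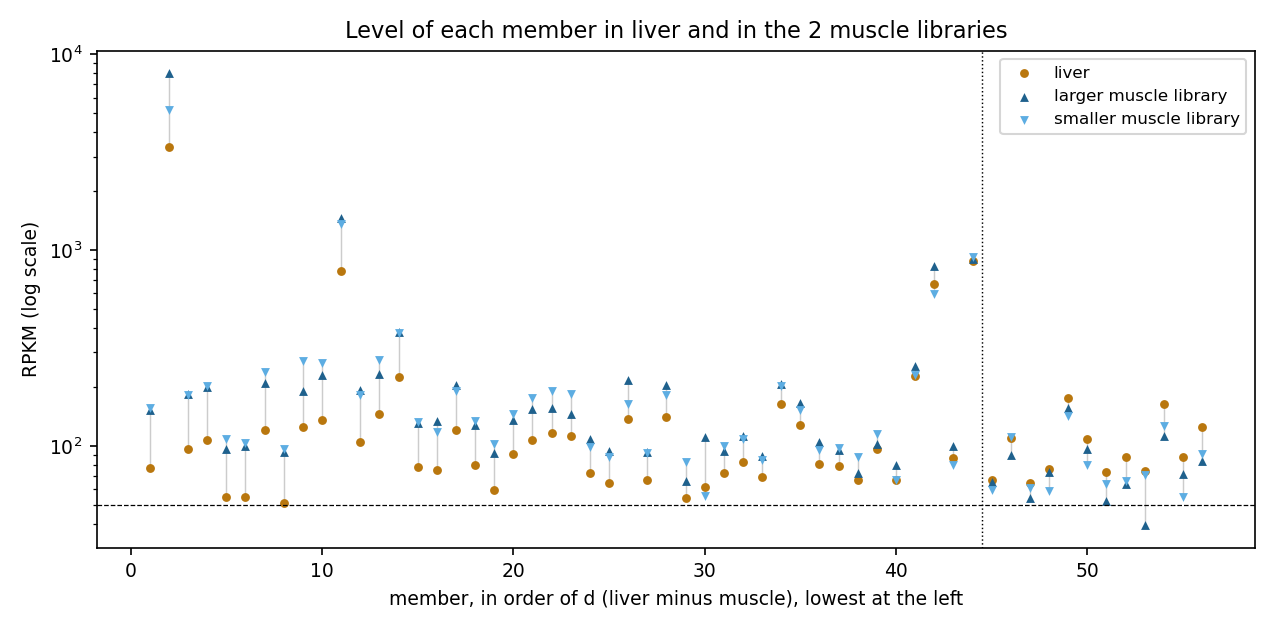
RPKM on a log axis for each of the 56 members in liver (circles), the larger (upward triangles) and the smaller muscle library (downward triangles), ordered by d as deposited, with the lowest at the left. The dotted line separates the 44 members higher in muscle from the 12 higher in liver and the dashed line marks 50 RPKM; 1 muscle value lies below it.

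The muscle libraries gave close values for the members. The median log2 ratio, smaller over larger library, was 0.014 with an SD of 0.28, and 29 members were higher in the smaller library and 27 in the larger. None of the 56 members was 2-fold or more apart between these libraries, against 2.03% of the 4186 genes. Over the genes within an absolute d of 1 that are not members it was 33 of 2613, with an SD of 0.29, close to that of the members. The rule bounds the mean of the muscle libraries against liver, not the gap between them. A count of 0 among 56 members is near these shares, and nothing particular to the members can be read from it. The widest gap was a log2 ratio of -0.995, in the member with 111 and 55.6 RPKM. The median gap was 0.14 between the muscle libraries and 0.48 between liver and their mean, again on the log2 scale and bounded for the tissues by the rule.

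Applied to each muscle library alone, the rule kept 54 of the 56 members with the larger and 54 with the smaller, and 52 with both. In all, 64 genes passed with the larger library and 57 with the smaller. The 52 members were also the complete set of genes that passed with each library. This is set by arithmetic, because the muscle column is the mean of the 2 libraries. Of the 4 members that did not pass with both, the highest is described above. The next had 125 RPKM in liver, against 191 and 271 RPKM in the larger and smaller muscle libraries, and d reached -1.11 with the smaller. Another stood at the bound, with 77.1 RPKM in liver, against 153 and 156 RPKM. The last had 74.6 RPKM in liver, against 39.3 and 71.2 RPKM, and fell under 50 RPKM in the larger muscle library.

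The members had shorter recovered lengths than most genes. Their median was 2500.5 bases (quartiles 867 and 4590, range 211 to 46067), against 8503 bases for all genes and 5089 bases for the genes at 1 RPKM or more in both tissues. Genes at 50 RPKM or more in muscle alone had a median of 2457 bases, and those at 50 RPKM or more in liver alone 4933 bases. For the 55 other genes at 50 RPKM or more in both tissues it was 1718 bases, so short length is not particular to the members. Length is the divisor of RPKM, so at equal reads a shorter gene has a higher RPKM. Whether this bears on the lengths of the members was not tested. Recovered lengths are lower bounds, and the sources used here do not say how the authors defined length. For the member on scaffold 16233 the recovered length was 9457 bases, above the longest spliced transcript of every assembly (at most 1568 bases). For the member on scaffold 21010 it was 3504 bases, against at most 1292 spliced bases. On scaffold 7237 it was close to the spliced length. Where length includes introns, genes with long introns have a lower RPKM at equal reads. The choice of members, the RPKM shares and these lengths would then depend on it. How far this holds was not tested. By RPM, which is not divided by length, 543 genes passed the rule, 50 of them members. The minimum of 50 is then in another unit, so the number that passed does not measure the effect of length. RPM also rests on the recovered reads, which are lower bounds.

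By length, 15 members were under 1000 bases, 28 between 1000 and 5000, and 13 were 5000 bases or more. The rule took 0.645%, 0.776% and 0.137% of all genes in these classes. The 15 shortest held 51.9% of the members' RPKM in liver and 60.0% in muscle, but 10.4% of their reads in liver, against 16.0% and 13.4% in the larger and smaller muscle libraries. The 13 longest held 11.5% of the members' RPKM in liver and 9.51% in muscle, but 54.6% of their reads in liver, against 50.7% and 50.9%. The median d was -0.50, -0.51 and -0.31 in the 3 classes, and each class held 4 members higher in liver. Within the members, length and the lower value had a Spearman's rho of -0.07, against -0.29 over the 4215 detected genes. Over the 111 genes at 50 RPKM or more in both tissues it was -0.03, so the weak relation is not particular to the members.

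**Figure D5:**
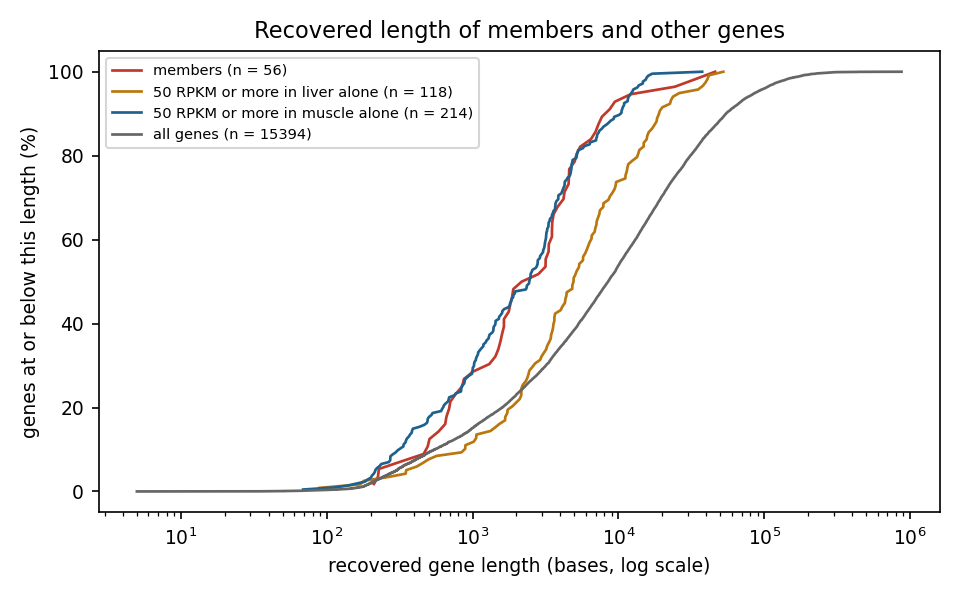
Cumulative share of genes (%) by recovered length (bases, log axis) for the members, the genes at 50 RPKM or more in liver alone, those at 50 RPKM or more in muscle alone, and all genes. The curve of the members runs close to that of muscle alone, with medians of 2500.5 and 2457 bases, and left of all genes at 8503 bases.

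Gene IDs give no order of the scaffolds in the genome, so members on different scaffolds may still lie close together. The members were spread over many scaffolds. They lay on 52 of 2679 scaffolds, with 1 member on 48 of them and 2 on the other 4, and these 52 scaffolds listed 1726 genes, 11.2% of all. The scaffold of a member listed a median of 28.5 genes, against 23 for any gene. Scaffolds with 20 or more genes held 39 members (69.6%), against 54.9% of all genes. Of 44 scaffolds with 50 or more genes, 10 held a member, against 1.94% of all 2679 scaffolds. A scaffold with more genes has more places for a member. Other abundant or detected genes were not set beside the members here, so none of this is shown to be particular to them.

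The scaffolds with 2 members were 373, 14538, 18915 and 22269. Their members were 17, 17, 18 and 32 gene numbers apart, with 41, 28, 110 and 94 genes listed. On scaffold 373 the members stood at 86.1 and 64.4 RPKM in liver and at 89.7 and 57.4 RPKM in muscle, with d of -0.06 and 0.16. On scaffold 18915 they stood at 779 and 136 RPKM in liver and at 1412 and 248 RPKM in muscle, with d of -0.86 in both. On scaffold 14538 the d values were -0.75 and -0.47, and on scaffold 22269 they were -0.71 and -0.42. Both genes were higher in muscle on 3 of the 4 scaffolds on the deposited scale, as were 44 of all 56 members.

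No member had another member as its neighbour, a gene numbered 1 above or below on the same scaffold. This was 0 of the 53 members with a listed neighbour, which allows a share of up to 5.66%, while 0.683% of all genes with a listed neighbour had a member there. Members within 2 gene numbers of each other were also not found. Of the 92 neighbours, 2 (2.17%) had 50 RPKM or more in both tissues, against 0.778% of the neighbours of all genes. Around the 111 genes at 50 RPKM or more in both tissues it was also 2.17%, so this share is not particular to the members. The neighbour of the highest member stood at 625 RPKM in liver and 1312 RPKM in muscle, with a d of -1.07, just outside the rule. The other such neighbour stood at 71.5 RPKM in liver and 145 RPKM in muscle, with a d of -1.01.

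Most neighbours of members were at low levels. Their median was 0.893 RPKM in liver and 1.46 RPKM in muscle, against 0.351 and 0.793 RPKM for the neighbours of all genes. Of the 92 neighbours, 38 (41.3%) had 1 RPKM or more in both tissues, against 28.7% of the neighbours of all genes and 35.9% of the neighbours of genes that were themselves at 1 RPKM or more in both. Around all genes at 50 RPKM or more in both tissues this share was 43.5%, with the same neighbour median of 0.893 RPKM in liver, so it is not particular to the members. The neighbours under 1 RPKM in both tissues numbered 34 (37.0%), against 50.4% of the neighbours of all genes. Members lie on scaffolds with many genes more often than all listed genes do, and whether this moves with the neighbours' levels was not tested.

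The transcript assemblies, 1 for liver and 2 for muscle, were not used by the rule but come from reads of the same samples. Members were chosen for abundant reads, so finding their transcripts is no independent support. No other genes of equal level were set beside them. Nothing in the labels ties the muscle assemblies to the muscle libraries. All 56 members lay on scaffolds with at least 1 spliced transcript in the liver assembly and in both muscle assemblies, as did 91.5% of the other genes in liver, against 93.5% and 92.9% in muscle assemblies 2 and 3. A transcript, however, can be tied to a gene at best where the scaffold lists 1 gene. Even there the tie is not certain, because gene numbers can exceed the genes listed. Gene 35 on scaffold 6564, for example, lay among 30 listed genes, so unlisted genes may share a scaffold. Scaffolds that list 1 gene held 3 members, and each of these scaffolds had a spliced transcript in all 3 assemblies. Among the 1614 other genes that are listed alone on their scaffold, 32.8% had a spliced transcript there in liver, against 45.9% and 41.6% in muscle assemblies 2 and 3. The Wilson 95% intervals of these shares were 30.6 to 35.2, 43.5 to 48.3 and 39.3 to 44.1. With 3 members the interval for their share reaches down to 43.9%.

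The structures assembled on the scaffolds of these 3 members could be set side by side in liver and muscle. On scaffold 7237, where liver had 227 RPKM and the muscle libraries 255 and 230 RPKM, each assembly held 1 transcript of 2 exons. It ran from position 46 to 997 in liver with 522 spliced bases, and likewise in muscle assembly 3, and from 113 to 997 with 455 spliced bases in muscle assembly 2. Its recovered length was 462 bases, close to the spliced length.

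On scaffold 16233, with 73.9 RPKM in liver, against 52.2 and 64.0 RPKM in the larger and smaller muscle libraries, the longest chain of exons had 8 in every assembly. The assembled transcripts covered positions 4238 to 15035 in liver, against 4273 to 15387 and 581 to 15034 in muscle assemblies 2 and 3. The recovered length of 9457 bases was far above the longest spliced transcript of liver, 1298 bases, and below its longest span, 10305 bases. On scaffold 21010, with 69.6 RPKM in liver, against 88.8 and 85.0 RPKM, the most exons in a transcript were 5 in liver, against 7 in each muscle assembly. The recovered length there was 3504 bases, between the 1292 spliced bases and the 5678 bases of span in liver. Positions are 1-based on the scaffolds of the authors' assembly, whose build is not named in the labels or headers.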

How the data were processed

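Libraries were made from total RNA with Illumina's TruSeq RNA kit, per the labels' protocols. The submitters' processing notes name TopHat, which aligns reads across introns, and the deposited assembly files name Cufflinks, which builds transcripts from them. The sources used here do not give versions, genome build, annotation, counting tool or length definition. The table the authors deposited holds RPKM per gene in a liver and a muscle column, per the file headers. The score that Cufflinks gives a transcript in the deposited files was not used. The 3 rows that are not genes were left out: reads outside any feature (24.3% in liver, 30.6% in muscle), reads with several possible features (0.0635% in liver, 0.217% in muscle) and reads without a unique place (2.80% in liver, 4.13% in muscle). Genes with near-identical copies lose such reads, so their RPKM is uncertain.

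The liver total is the smallest whole number that makes all 3 such rows whole reads, to within 1.86e-08. Ratios of the muscle to the liver value that recur in many genes gave both muscle totals. The shortest whole length at which a gene's 2 values both became whole reads, to a relative 6e-15, was then taken for each gene, and 15394 of 15394 genes had one. Any common divisor of reads and length drops out, so both are lower bounds, while the RPKM of each library is not affected. Recovered reads made up 91.6% of the reads that liver had left for genes and 95.2% in muscle. In a simulation of liver against muscle with 2891 genes, reads and length came back exactly for 92.1%, divided by a common factor for 7.54%, and wrong for 0.346%. There the rule found 100 of 100 abundant genes made at equal level and 0 of 100 made 4-fold apart. These genes were made far from the bounds of the rule, so this outcome was fixed in advance. It checks the calculation only and tells nothing about genes near a bound. Intervals are exact Poisson 95% intervals for reads and Wilson 95% intervals for shares. Like the limit of 3 counts for a count of 0, they hold counting error and nothing else: without molecular identifiers, reads may be copies of one molecule.

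The pseudocount was 1 RPKM. No p-value was computed. The members and all lists were chosen with earlier results of these data known. The rule for named genes was to print, where no file pairs an ID with a symbol, the 2 members with the highest lower value on each side; other members are given by value, and scaffolds were named after their values were seen. The alternatives tried were other pseudocounts, minimums and bounds of d, equal sums of both columns, centring and quantile normalization. A scale without the 50 highest genes of either tissue and each muscle library alone were also tried. RPM and leaving out the 4 highest members were chosen after seeing the data. Calculations used Python 3.11.15, numpy 2.4.6, scipy 1.17.1, pandas 2.3.3, numba 0.67.0 and matplotlib 3.10.9.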

Additional observations from a re-analysis of the deposited data

Results flagged for a closer look

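Signal outside the gene rows entered no comparison, although it lay above what 0 reads would allow. In liver, 24.3% of the reads fell outside any feature, 2.80% had no unique place and 0.0635% had several possible features. In muscle the same values were 30.6%, 4.13% and 0.217%.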

How the results depend on the processing

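As reported, 56 genes passed, with 9.29% of the liver sum, 11.3% of the muscle sum and a median d of -0.46. A pseudocount of 0.1 gave 9.22% of the liver sum and -0.46, and a pseudocount of 5 gave 9.53% and -0.44. A minimum of 20 RPKM gave 143 genes, 11.8% and 13.7% of the liver and muscle sums and -0.39. A minimum of 100 RPKM gave 23 genes, 7.15%, 9.17% and -0.56. An absolute d under 0.5 gave 31 genes, 3.75%, 3.20% and -0.12. Bringing both columns to the same sum gave 82 genes, 12.8%, 17.4% and -0.39. Centring gave 81 genes, 13.5%, 19.4% and -0.23. Quantile normalization gave 90 genes, 13.3%, 17.9% and -0.38. The scale without the 50 highest genes gave 96 genes, 14.1%, 20.8% and -0.18. The larger muscle library alone gave 7.23% and 7.60%, as the highest member dropped out, and the smaller gave 11.2%, 13.0% and -0.44. With RPM in place of RPKM, 543 genes passed, 50 of them members, with 13.9% and 18.2% of the reads and -0.34. There the minimum of 50 is in another unit, so this number is not comparable with the others. Without the 4 highest members the shares were 4.42% and 4.75%. The median d of the genes that passed stayed below 0 under all of these, with the rule applied anew each time. The causes were not tested, except that a lower minimum admits more genes by construction, and a higher minimum or a narrower bound of d fewer. No paired analysis was possible because each tissue has 1 sample.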
